A study of Homo sapiens with 9 samples.

Results

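The AP-1 family genes described here are FOS, FOSB, FOSL1, FOSL2, JUN, JUNB, JUND, ATF3, BATF3 and MAFF. They were chosen by gene symbol and make up 10 of the 62,710 gene identifiers in the count table. Their RNA was measured by poly(A) RNA-sequencing in HT-29 cells, a human colorectal adenocarcinoma cell line that the labels give as wild type. There were 3 libraries per condition: cells left without a stimulus (non-stimulated), cells given flagellin at 500 ng/mL, and cells given ADP-heptose at 500 ng/mL, both for 2.5 h. All groups were the same cell line in culture, so the conditions differ in the stimulus, and each group holds only a single line. All 10 genes passed the filter on low counts, and they were tested together with the rest of the 17,412 genes that passed it. BATF3 passed it only through the flagellin and ADP-heptose libraries, as its non-stimulated libraries held 0, 10 and 2 counts. Its comparisons with non-stimulated cells are therefore not free of that filter.

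AP-1 is not a single protein. It is a pair of basic leucine zipper (bZIP) proteins, in which the zippers hold the partners together and the basic regions grip DNA, most often at TGANTCA or the longer TGACNTCA. Jun proteins can pair with each other or with Fos proteins, while Fos proteins need a partner, and the ATF, BATF and small Maf proteins extend the choice of partners and sites. Many of these genes are immediate-early genes, whose transcription begins within minutes of a signal through the MAP kinases without new protein synthesis. ADP-heptose is a sugar nucleotide of the lipopolysaccharide pathway of Gram-negative bacteria that is sensed in the cytosol by the kinase ALPK1, and flagellin is sensed at the cell surface by the receptor TLR5. Both routes reach the kinase TAK1, which feeds NF-κB and the MAP kinases. The comparisons ask how far each stimulus moved the AP-1 genes.

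The libraries held 30,770,448 to 58,272,772 counts, with the ADP-heptose libraries the deepest. ADP-heptose replicate 3 stood apart. The SD of its log2 differences from replicates 1 and 2 was 0.378 and 0.383 over 12,168 genes, against 0.135 between replicates 1 and 2 and 0.167 to 0.196 between non-stimulated libraries. Values without it are given for part of the results. Of 11 colon epithelial markers, 10 passed the filter on low counts, with EPCAM at 954 ± 45.6 CPM (counts scaled to a library size of 1,000,000, SD, n = 3) in non-stimulated cells, while the intestinal regulators CDX1 (0 to 12 counts per library) and CDX2 (17 to 48 counts) were nearly absent. The summed level of the epithelial list was 8133 to 8504 CPM in non-stimulated, 8330 to 8663 in flagellin and 8923 to 12,595 in ADP-heptose libraries, and 1 of its genes, KRT20, was higher after ADP-heptose (log2 fold change 0.40 ± 0.06, SE, adjusted p = 0.000941). The 8 immune markers summed to 0.111 to 0.461 CPM in non-stimulated, 0.308 to 0.665 in flagellin and 0.684 to 1.51 in ADP-heptose libraries, with 3 at 0 counts throughout. The highest of them in the ADP-heptose libraries, ITGAM, had 0 to 59 counts per library over all groups and was called higher after ADP-heptose (adjusted p = 0.0121). ITGAM was the only 1 of the 8 that was tested. It passed the filter through its ADP-heptose libraries, so its call is not free of that filter. Its mean was 0.0537 CPM in non-stimulated, 0.120 in flagellin and 0.824 in ADP-heptose libraries. The 4 endothelial markers summed to 0.190 CPM or less. The 6 fibroblast markers summed to 12.5 to 14.7 CPM in non-stimulated, 12.6 to 16.1 in flagellin and 16.9 to 19.1 in ADP-heptose libraries, nearly all of it from COL1A1, which was called higher after ADP-heptose (log2 fold change 0.41 ± 0.11, SE, adjusted p = 0.0311), with COL1A2, DCN and LUM at 0 counts. The part of these marker levels in the results below was not tested.

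Because Jun and ATF proteins can bind the promoters of AP-1 genes themselves, the 250 bases before each RefSeq start (GRCh38.p14) were searched on both strands for their sites. RefSeq promoters were matched for 8 of the 10 genes with 10 starts, as ATF3 and MAFF each have a second start. Other transcript starts of these genes were not searched. The 8-letter motif TGACNTCA was found before JUN, ATF3, JUND and MAFF, that is, in 4 genes, and in 6.87% of all 35,116 promoters in the table. In ATF3 and MAFF it lay before the first of the 2 starts and not before the second. The 7-letter motif TGANTCA was found in 0 of the 8 genes and in 6.57% of all promoters. The 4 windows with the 8-letter motif are shown because only these 4 of the 8 genes hold it, with the motif in capitals, read 5′ to 3′ on the strand of the gene, with 10 flanking bases on each side. They lie at chr1:58784097-58784124 (JUN, minus strand, motif from -67 to -60 relative to the start), chr1:212565274-212565301 (ATF3, plus strand, -123 to -116), chr19:18281805-18281832 (JUND, minus strand, -200 to -193) and chr22:38201930-38201957 (MAFF, plus strand, -54 to -47).
JUN: ggccttggggTGACATCAtgggctattt
ATF3: acctatgataTGACATCAtatggccact
JUND: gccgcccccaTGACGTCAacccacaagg
MAFF: gccgggtcggTGACGTCAccgcatgact
JUN and ATF3 carried the spelling TGACATCA, which 2.37% of all promoters hold, and JUND and MAFF the palindrome TGACGTCA, which 1.65% hold. The other 4 genes with a promoter, FOS, FOSB, FOSL2 and JUNB, held only the 5-letter core TGACG, found in 21.2% of all promoters and itself part of TGACGTCA. The serum response element core (CArG motif) was found in 0 of the 8 genes and 1.16% of promoters, and the κB motif in 1 gene, before the second start of MAFF, and in 5.21% of promoters. Bases outside these stretches of 250 were not searched. A count of 0 here therefore does not show that a gene lacks the motif further upstream. The windows of these 4 genes are shown so that the core can be set beside the longer motif. They lie at chr14:75278754-75278778 (FOS, core from -64 to -60), chr19:45467926-45467950 (FOSB, -60 to -56), chr2:28392782-28392806 (FOSL2, -66 to -62, with a second core on the other strand from -201 to -197) and chr19:12791339-12791363 (JUNB, -137 to -133), all on the plus strand.
FOS: gttgagcccgTGACGtttacactca
FOSB: aaggggcgggTGACGtaagcagggg
FOSL2: agtctggggtTGACGtgagtgaatc
JUNB: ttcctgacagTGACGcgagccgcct
A match is a description of letters, and binding was not measured. In the GENCODE 29 annotation the windows of JUN and MAFF lie inside an exon of the gene and those of FOSB, JUNB, JUND and ATF3 upstream of it. The windows of FOS and FOSL2 reach into an exon only with their last bases, and their cores lie before it, upstream of the gene for FOS and between annotated exons for FOSL2.

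With ADP-heptose all 10 AP-1 genes rose, 9 of them at least 2-fold and 5 at least 4-fold. BATF3, which passed the filter only through stimulated libraries, is included in each of these counts. ATF3 rose the most, 16.3-fold, and FOS, the founding member of the family, the least, 1.46-fold. Their median log2 fold change was 1.96, against 0.01 over all 17,412 genes. For comparison, 7.48% of all tested genes were called higher, 4.42% lower, and 2.89% higher by at least 2-fold, at a Benjamini-Hochberg adjusted p under 0.05 in edgeR's quasi-likelihood test. In all 10 genes every ADP-heptose library lay above every non-stimulated one, which held for 15.4% of all tested genes. Scaling by library totals moved the median of all genes to -0.13, and the calls over all genes then split into 917 higher and 1886 lower in place of 1302 and 770, while all 10 AP-1 genes were still called higher. In bulk RNA, a change in the RNA of each cell and a change in the number of cells that carry it cannot be told apart.

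**Figure D1:**
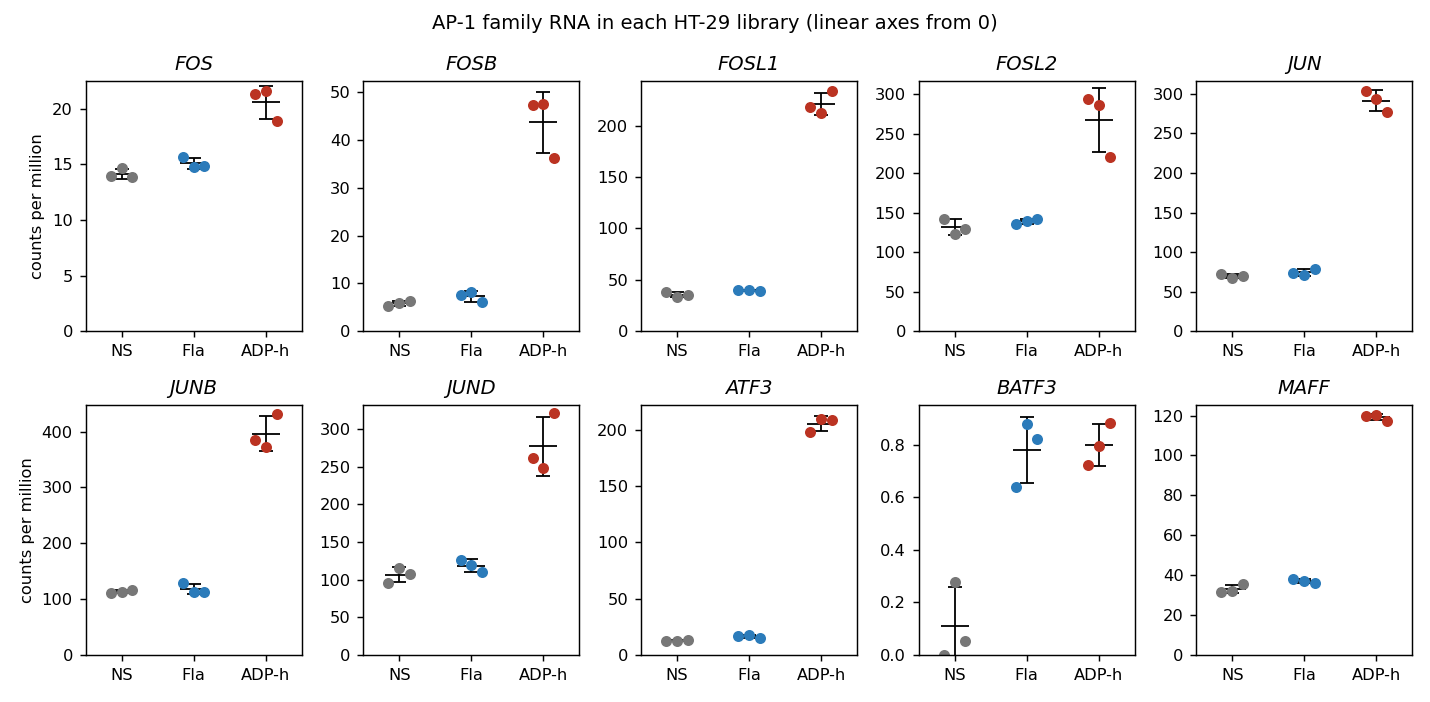
Level of each AP-1 gene in CPM in the 3 non-stimulated (NS), 3 flagellin (Fla) and 3 ADP-heptose (ADP-h) libraries, on linear axes that start at 0 and differ between genes. Points are libraries, long bars are means and short bars are ± 1 SD (n = 3), and the ADP-heptose points lie above both other groups in every gene but BATF3, where they overlap the flagellin points.

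Among the Fos genes, FOSB and FOSL1 rose several-fold and FOSL2 and FOS far less. FOSB encodes a Fos protein and lies on chromosome 19 (45,467,995-45,475,179, GRCh38, plus strand). Its levels were 5.32, 5.87 and 6.25 CPM in non-stimulated cells and 47.3, 47.5 and 36.3 CPM after ADP-heptose. The groups were far apart, although ADP-heptose replicate 3 was the lowest of its group. The log2 fold change was 2.91 ± 0.14 (SE, adjusted p = 3.21e-08), and 3.03 without that library.

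FOSL1 encodes Fra-1, a Fos protein linked to invasion in epithelial tumors (chromosome 11, 65,892,049-65,900,573, minus strand). It had 38.4, 33.4 and 34.9 CPM in non-stimulated cells and 218, 212 and 233 CPM after ADP-heptose. All 3 stimulated libraries lay close together here, ADP-heptose replicate 3 included, and the log2 fold change was 2.64 ± 0.08 (SE, adjusted p = 2.03e-10).

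FOSL2, which encodes the related Fra-2 (chromosome 2, 28,392,448-28,417,312, plus strand), started from a higher count. It had 143, 123 and 129 CPM before and 294, 287 and 221 CPM after ADP-heptose. Its log2 fold change of 1.02 ± 0.10 (SE, adjusted p = 2.42e-05) sat at the 2-fold line, and its 95% interval ran from 0.80 to 1.25. Without ADP-heptose replicate 3, the lowest of its group, it was 1.15.

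FOS, on chromosome 14 (75,278,774-75,282,230, plus strand), is the classic immediate-early gene, whose RNA is known to peak early and decay fast. It had 13.9, 14.6 and 13.8 CPM in non-stimulated cells and 21.3, 21.5 and 18.9 CPM after ADP-heptose. The groups did not overlap, but the distance was small, at a log2 fold change of 0.54 ± 0.09 (SE, adjusted p = 0.00112). Without ADP-heptose replicate 3, the lowest of its group, the value for FOS was 0.60. No other of the 10 genes stayed below 2-fold, and with a single time point of 2.5 h its earlier course is not in these data.

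All 3 Jun genes rose, in the order JUN, JUNB, JUND. JUN encodes the strongest transcriptional activator of the subfamily and lies without introns on chromosome 1 (58,780,788-58,784,327, minus strand). Its levels were 71.9, 66.8 and 69.5 CPM before and 303, 293 and 277 CPM after ADP-heptose, which gave a log2 fold change of 2.07 ± 0.07 (SE, adjusted p = 1.18e-09).

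JUNB, whose protein can restrain JUN or act in its place, is a short gene on chromosome 19 (12,791,496-12,793,315, plus strand). It had 112, 112 and 117 CPM in non-stimulated cells and 385, 373 and 432 CPM after ADP-heptose. The log2 fold change was 1.80 ± 0.08 (SE, adjusted p = 1.27e-08). In GENCODE 29 it shares 259 exon bases with HOOK2 on the opposite strand, and whether the counting used strand is not given in the sources used here. HOOK2 itself had 57.4 CPM on average in non-stimulated and 65.3 CPM in ADP-heptose libraries (log2 fold change 0.19 ± 0.09, SE, adjusted p = 0.209). The part of the shared bases in the counts of either gene was not tested.

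JUND is the Jun gene that resting cells usually express steadily (chromosome 19, 18,279,760-18,281,622, minus strand). It had 95.6, 116 and 108 CPM before and 262, 248 and 321 CPM after ADP-heptose. Here ADP-heptose replicate 3 was the highest of its group. The log2 fold change was 1.38 ± 0.11 (SE, adjusted p = 2.41e-06), and 1.26 without that library.

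ATF3, a stress-induced bZIP factor that pairs with Jun proteins and can repress inflammatory genes, changed most of all 10 genes. It lies on chromosome 1 (212,565,334-212,620,777, plus strand). The 3 non-stimulated libraries had 12.7, 12.2 and 13.0 CPM and the ADP-heptose libraries 198, 210 and 209 CPM. Both groups were tight, and the log2 fold change of 4.02 ± 0.08 (SE, adjusted p = 9.5e-12) ranked 65 among all tested genes. ADP-heptose replicate 3 was in the middle of its group, and the value without it was also 4.02.

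MAFF, a small Maf protein that has a bZIP domain but no activation domain, is on chromosome 22 (38,200,767-38,216,511, plus strand). It had 31.5, 32.0 and 35.4 CPM before and 120, 121 and 117 CPM after ADP-heptose. The stimulated libraries were nearly equal, and the log2 fold change was 1.86 ± 0.07 (SE, adjusted p = 3.19e-09).

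BATF3, best known as a factor of dendritic cell development, was barely expressed. It lies on the minus strand of chromosome 1 (212,686,418-212,699,985), 65,640 bases from ATF3. The non-stimulated libraries held 0, 10 and 2 counts and the ADP-heptose libraries 35, 45 and 40. The groups did not overlap, and the log2 fold change was 2.86 ± 0.65 (SE, adjusted p = 0.0113), with a 95% interval from 1.45 to 4.27. The size rests on 12 counts in non-stimulated cells: without non-stimulated replicate 2 the log2 fold change was 4.78, and without non-stimulated replicate 3 it was 2.54 and no longer passed (adjusted p = 0.062).

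ADP-heptose replicate 3 did not move all members one way. Relative to the mean of replicates 1 and 2, its level was 0.761 for FOSL2, 0.765 for FOSB, 0.881 for FOS and 0.930 for JUN, and 1.09 for FOSL1, 1.14 for JUNB, 1.16 for BATF3 and 1.26 for JUND. The genes it had higher have exon lengths of 1820 to 2713 bases and those it had lower 3238 to 7157 bases. MAFF, at 0.977, has 5615 exon bases, and ATF3, at 1.03, has 4040. The part of transcript length in this library was not tested.

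After flagellin, 0 of the 10 AP-1 genes passed the test in edgeR, at a background of 0.368% of all tested genes called higher (0.212% also at least 2-fold) and 0.0115% lower. All 10 point estimates were above 0, as were 51.8% of those of all genes. The median of the 10 genes was 0.16, against 0.00 over all genes. In 5 of them, FOS, FOSL1, ATF3, BATF3 and MAFF, every flagellin library lay above every non-stimulated one, which held for 7.66% of all genes. Unadjusted p was under 0.05 for 5 genes (FOSB, FOSL1, ATF3, BATF3 and MAFF), against 3.78% of all genes. Leaving BATF3 aside, the fitted folds of 9 genes lay between 1.04 and 1.30, and no 95% interval reached above 1.56-fold. The non-stimulated libraries are those used for ADP-heptose too, so the directions of both comparisons are not independent.

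ATF3 and BATF3 were the 2 genes near the threshold. ATF3 had 12.7, 12.2 and 13.0 CPM in non-stimulated and 17.2, 17.3 and 14.8 CPM in flagellin libraries. The log2 fold change was 0.38 ± 0.08 (SE), with an unadjusted p of 0.000494 and an adjusted p of 0.107 in edgeR's fit of all 9 libraries. With DESeq2 the adjusted p was 0.00723, in edgeR's fit of only the 6 libraries compared 0.0369, and without ADP-heptose replicate 3, which enters this test through the shared estimate of the spread, 0.00118.

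BATF3 held 25, 31 and 26 counts in the flagellin libraries, against 0, 10 and 2 in the non-stimulated ones. Its log2 fold change of 2.82 ± 0.66 (SE, adjusted p = 0.188 in edgeR) was about as large as after ADP-heptose. The adjusted p was 0.000393 with DESeq2, 0.0106 in the fit of 6 libraries, 4.34e-05 with no filter on low counts, 0.00734 without ADP-heptose replicate 3 and 0.0171 without non-stimulated replicate 2, where the log2 fold change was 4.74. DESeq2 thus called both genes, for 2 of 10. No setting called any of the other 8.

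The remaining flagellin values were small. FOSB had 7.62, 8.18 and 6.02 CPM after flagellin, which overlapped the non-stimulated range, and a log2 fold change of 0.33 ± 0.15 (SE, adjusted p = 1). FOSL1 had 40.1, 40.0 and 39.5 CPM, just above its highest non-stimulated library, and MAFF 38.1, 36.9 and 36.0 CPM. Their log2 fold changes were 0.16 ± 0.07 and 0.17 ± 0.07 (SE, adjusted p = 1 for both in edgeR). FOS, FOSL2, JUN, JUNB and JUND had log2 fold changes of 0.06 to 0.16, all with an adjusted p of 1.

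Set directly against flagellin, ADP-heptose gave higher levels of 9 of the 10 genes, 7 of them at least 2-fold higher and 3 at least 4-fold. The background was 5.4% of all genes higher, 2.06% higher by at least 2-fold, and 2.76% lower. The libraries of these 9 genes did not overlap, as was the case for 14.2% of all genes. ATF3 was 12.5-fold higher with ADP-heptose (log2 fold change 3.64 ± 0.08, SE, adjusted p = 5.28e-11), rank 26 among all genes. FOSB (2.58), FOSL1 (2.47), JUN (1.97), JUNB (1.74), MAFF (1.69) and JUND (1.22) followed on the log2 scale. FOSL2 was below 2-fold at 0.94 ± 0.10 (SE, adjusted p = 6.93e-05), and 1.07 without ADP-heptose replicate 3. FOS differed least of the called genes, at 0.45 ± 0.09 (SE, adjusted p = 0.00551), and with library totals as the scale it did not pass (0.33, adjusted p = 0.0511).

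BATF3 was the exception. Its 25, 31 and 26 counts with flagellin and 35, 45 and 40 with ADP-heptose came to 0.782 ± 0.125 and 0.801 ± 0.0798 CPM (SD, n = 3), since the ADP-heptose libraries were deeper. The log2 difference was 0.04 ± 0.50 (SE, adjusted p = 0.975), with a 95% interval from -1.05 to 1.13. The interval includes differences of about 2-fold in either direction, so the values do not show that the stimuli act alike on BATF3.

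**Figure D2:**
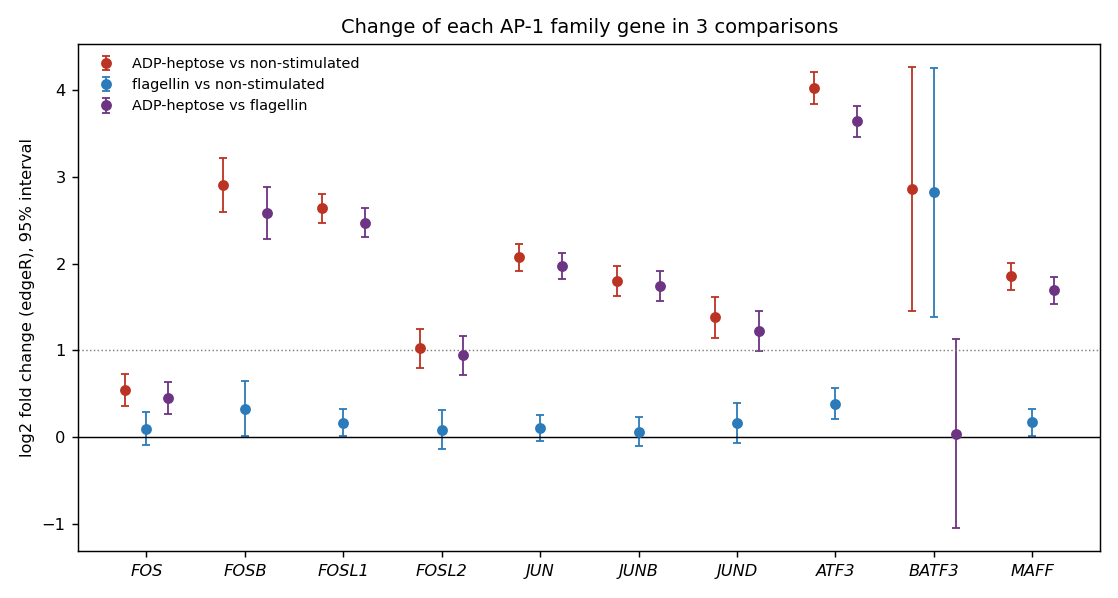
Log2 fold change of each AP-1 gene from edgeR for ADP-heptose against non-stimulated (red), flagellin against non-stimulated (blue) and ADP-heptose against flagellin (purple), with 95% intervals. The dotted line marks 2-fold, and ATF3 stands highest at 4.02 while the flagellin values lie near 0 in every gene but BATF3, which has the widest intervals.

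Levels can be compared between genes only per length, here as CPM per kilobase of exon. The length counts each annotated exon base of a gene once, over all its transcripts. Which transcripts the cells express was not determined, and the order, shares and ratios below rest on these lengths. In non-stimulated cells the Jun genes dominated. JUNB (62.4 ± 1.43, SD, n = 3) and JUND (57.1 ± 5.44) led and overlapped each other. JUN (19.6 ± 0.718), FOSL1 (18.8 ± 1.36) and FOSL2 (18.4 ± 1.41) followed, and neighbours among these 3 overlapped. MAFF (5.87 ± 0.371), FOS (4.37 ± 0.136), ATF3 (3.13 ± 0.102), FOSB (1.05 ± 0.0840) and BATF3 (0.0408 ± 0.0544) came below, with no overlap between neighbours.

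With flagellin the order was the same except that FOSL1 (21.1 ± 0.183) stood before JUN (21.0 ± 1.12), and those 2 overlapped. After ADP-heptose the order was JUNB (218 ± 17.3), JUND (149 ± 20.8), FOSL1 (117 ± 5.83), JUN (82.3 ± 3.68), ATF3 (50.9 ± 1.68), FOSL2 (37.4 ± 5.62), MAFF (21.2 ± 0.289), FOSB (7.87 ± 1.16), FOS (6.35 ± 0.456) and BATF3 (0.295 ± 0.0294). Only FOSB and FOS overlapped as neighbours. ATF3 thus moved from place 8 to place 5, above FOSL2, and FOS from place 7 to place 9.

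The summed per-length level of the 10 genes was 187, 192 and 193 CPM per kilobase in non-stimulated libraries, 217, 204 and 200 with flagellin and 680, 662 and 728 with ADP-heptose. Within that sum, the share of FOSL1 was 9.88% ± 0.866 (SD, n = 3) in non-stimulated, 10.2% ± 0.356 in flagellin and 17.0% ± 0.00296 in ADP-heptose libraries. The share of ATF3 went from 1.64% ± 0.0573 over 1.96% ± 0.135 to 7.38% ± 0.399 in the same order. The share of FOSB was 0.549% ± 0.0354, 0.632% ± 0.0903 and 1.15% ± 0.218. In FOSL1, ATF3 and FOSB every ADP-heptose library had a larger share than any other library.

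JUND made up 29.9% ± 2.47 of the sum in non-stimulated and 21.5% ± 1.91 in ADP-heptose libraries (SD, n = 3), FOSL2 9.64% ± 0.888 and 5.45% ± 1.04, and FOS 2.29% ± 0.0714 and 0.925% ± 0.109, although the RNA of each rose. JUNB kept a similar share, 32.7% ± 0.483 and 31.5% ± 0.929, and so did MAFF, 3.08% ± 0.160 and 3.09% ± 0.191. The ratio of summed Jun to summed Fos RNA was 2.92, 3.53 and 3.37 in non-stimulated, 3.43, 3.14 and 3.08 in flagellin and 2.55, 2.51 and 2.93 in ADP-heptose libraries. ADP-heptose replicate 3, at 2.93, reached the lowest non-stimulated library, so the ADP-heptose and non-stimulated ratios overlapped. Shares and ratios are descriptions of RNA per exon length and were not tested.

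**Figure D3:**
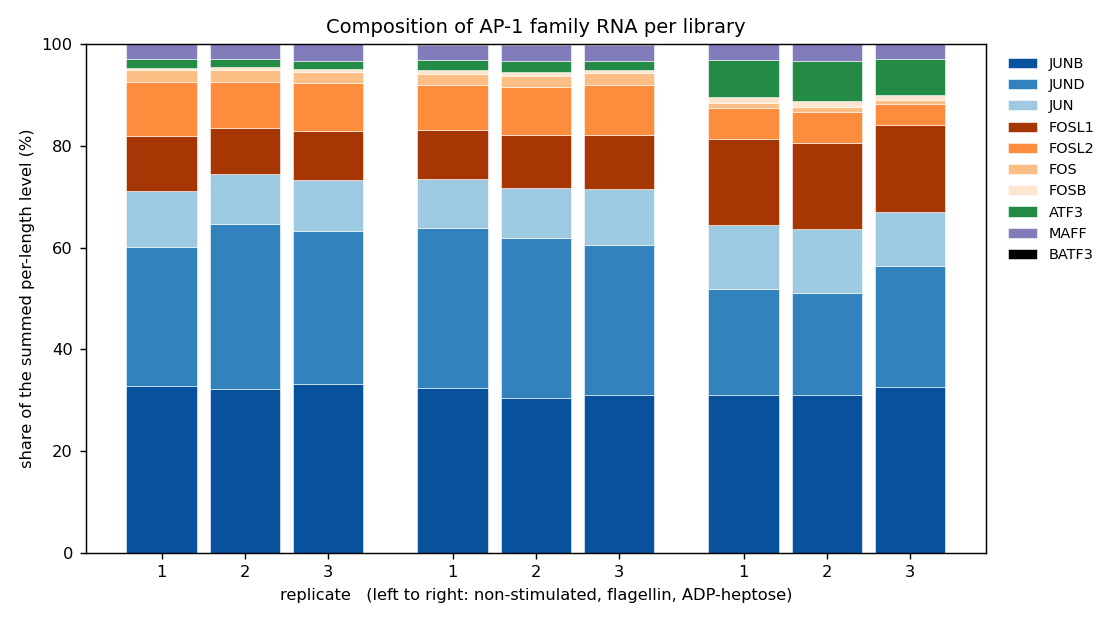
Share of each AP-1 gene in the summed per-length level of the 10 genes (%), 1 bar per library, with 3 non-stimulated, 3 flagellin and 3 ADP-heptose libraries from left to right. Jun genes are blue, Fos genes orange to brown, ATF3 green, MAFF purple and BATF3 black (too thin to see), and the ADP-heptose bars show wider ATF3 and FOSL1 bands and narrower JUND and FOSL2 bands.

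Other bZIP genes, which can pair with the AP-1 proteins or compete for their sites, rose in part. Of 20 listed, 17 were tested, of which 8 (47.1%, beside 7.48% of all tested genes) rose and 0 fell with ADP-heptose (median 0.40 on the log2 scale). The number that rose was 6 without non-stimulated replicate 1 and 11 without ADP-heptose replicate 3. It was 7 with library totals, without non-stimulated replicate 3 and in the fit of the 6 libraries compared. Without non-stimulated replicate 2 or ADP-heptose replicate 2 it was 9. CREB5, a relative of ATF2, rose by 1.15 ± 0.16 (SE, adjusted p = 0.000401), and BACH1, a repressor that pairs with small Maf proteins, by 1.10 ± 0.11 (adjusted p = 1.98e-05). CEBPB, a regulator of acute-phase and cytokine genes, rose by 0.93 ± 0.07 (adjusted p = 1.13e-06) and NFE2L2, which encodes the antioxidant regulator NRF2, by 0.67 ± 0.07 (adjusted p = 2.47e-05). In the direct comparison 7 of the 17 had more RNA with ADP-heptose than with flagellin, and 0 had less. That count was 4 without flagellin replicate 3 and in the fit of the 6 libraries compared, 5 with the replicate number as a block, with library totals or without flagellin replicate 1 or 2, and 9 without ADP-heptose replicate 3. After flagellin 0 passed in edgeR, with 2 at an unadjusted p under 0.05 and 0 in DESeq2.

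The MAP kinase route to AP-1 is regulated mainly by phosphorylation. Of 27 genes tested, 2 rose and 1 fell after ADP-heptose, with a median of 0.02, and the share called higher, 7.41%, was near the 7.48% of all tested genes. MAP2K3, a kinase of p38, went from 82.2 ± 0.242 to 199 ± 16.9 CPM (SD, n = 3, log2 fold change 1.28 ± 0.08, SE, adjusted p = 3.11e-07). MAP3K8, a kinase that activates the ERK pathway, rose by 0.92 ± 0.08 (adjusted p = 1.04e-05). MAP2K6, the other main kinase of p38, fell by 0.45 on the log2 scale (SE 0.13, adjusted p = 0.043). This fall was not called with the replicate number as a block, in the fit of the 6 libraries compared, or without non-stimulated replicate 2 or 3, any of the flagellin replicates or ADP-heptose replicate 1. Without ADP-heptose replicate 3, 5 genes rose and 1 fell, without ADP-heptose replicate 2, 2 rose and 2 fell, with no filter 4 rose and 1 fell, and with library totals 2 rose and 5 fell. After flagellin 0 passed in edgeR, with 2 at an unadjusted p under 0.05, while 1 gene was called by DESeq2 and in edgeR's fit of the 6 libraries compared, and 2 without ADP-heptose replicate 3.

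Most of the known AP-1 target genes that were tested rose. Of 22 tested, 14 (63.6%, beside 7.48% of all tested genes) rose after ADP-heptose, 10 of them at least 2-fold, and 0 fell, with a median of 0.75. Many of these genes are also targets of NF-κB, so the list does not separate the factors. CXCL8, a chemokine that attracts neutrophils, went from 4.75 ± 1.25 CPM over 26.7 ± 0.590 with flagellin to 975 ± 33.1 with ADP-heptose (SD, n = 3). Its log2 fold change was 7.68 ± 0.16 for ADP-heptose (SE, adjusted p = 9.5e-12) and 2.49 ± 0.14 after flagellin (adjusted p = 1.18e-06).

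PLAU, which encodes urokinase, rose by 5.61 ± 0.10 after ADP-heptose (adjusted p = 3.74e-12) and by 1.60 ± 0.11 after flagellin (SE, adjusted p = 8.06e-06). PTGS2, the inducible cyclooxygenase, rose by 4.42 ± 0.16 (adjusted p = 2.53e-09) and 1.11 ± 0.15 (SE, adjusted p = 0.00581). MMP10, a matrix metalloprotease, rose by 4.46 ± 0.19 after ADP-heptose (adjusted p = 1.02e-08), and its value after flagellin was 0.71 ± 0.24 (SE, adjusted p = 0.835). CXCL8, PLAU and PTGS2 were the 3 genes of the list called after flagellin, while 14 of the 22 had more RNA with ADP-heptose than with flagellin. The number called after flagellin was 5 without ADP-heptose replicate 3 and 5 in the fit of the 6 libraries compared.

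Heat shock genes, which can respond with several AP-1 genes to the handling of cells, moved too, by less than 2-fold. Of 9 tested, 5 (55.6%, beside 7.48% of all tested genes) rose after ADP-heptose and 0 fell, with a median of 0.30: DNAJA1 (0.73 ± 0.07, SE, adjusted p = 2.36e-05), HSPA1A (0.53 ± 0.10, adjusted p = 0.00493), DNAJB1 (0.48 ± 0.07, adjusted p = 0.000665), HSPA1B (0.40 ± 0.07, adjusted p = 0.00328) and HSPA8 (0.30 ± 0.07, adjusted p = 0.0187). The number that rose was 4 with library totals, where the median was 0.17, and in the fit of the 6 libraries compared. It was also 4 with the replicate number as a block and without non-stimulated replicate 1 or 3. HSPA1A and HSPA1B are near-identical copies, and how reads were split between them is not given. The summed level of the 10 listed genes was 4940 to 5319 CPM in non-stimulated, 5038 to 5149 in flagellin and 5750 to 6208 in ADP-heptose libraries. After flagellin 0 passed in edgeR or DESeq2 and 0 had an unadjusted p under 0.05. The part of handling in the rise of the AP-1 genes was not tested.

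The genes whose log2 CPM over the 9 libraries followed each AP-1 gene most closely were found among 12,168 genes whose mean log2 CPM was 1 or more, as a description, since the libraries form 3 groups and many genes share a step between them. ATF3 was closest to PDGFB (Pearson's r = 0.9996) and IER3 (0.9990), and MAFF to RHOB (0.9990) and PDGFB (0.9989). JUN followed RHOB (0.9982) and PNRC1 (0.9979), and JUNB followed AREG and PPP1R15A (0.9979 each). FOSL1 was closest to ATF3 itself (0.9981) and to PPP1R15A (0.9977). FOSB was closest to CSRNP1 and MIDN (0.9969 each), FOSL2 to THBS1 and ZFP36L1 (0.9968 each) and JUND to CITED4 (0.9959) and NECAP2 (0.9952). FOS had RAB22A (0.9933) and CTNNB1 (0.9921). BATF3 followed no gene as closely: its best were EMP2 (0.9270) and C14orf28 (0.9232). At r of at least 0.99 there were 66 genes each for ATF3 and MAFF, 9 for FOS and 0 for BATF3.

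Apart from JUNB and HOOK2, the genes that overlap a member in the annotation share no exon bases with it. ERCC1, opposite FOSB, had 49.6 CPM in non-stimulated and 64.4 CPM in ADP-heptose libraries on average (log2 fold change 0.38 ± 0.11, SE, adjusted p = 0.0393). PLA2G6, opposite MAFF, had 6.58 and 6.64 CPM (adjusted p = 0.972). FLJ31356, opposite FOSL2, had 0.663 and 0.925 CPM (adjusted p = 0.365), and AC104695.3, inside FOSL2 on the same strand, had 2 to 13 counts per library and was not tested.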

How the data were processed

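Poly(A) RNA was measured in 9 libraries of HT-29 cells, 3 per condition. The authors isolated RNA with TRIzol and columns, sequenced paired reads, aligned them with HISAT2 and assigned them to genes with featureCounts. What they deposited are raw counts, 1 column per library. Of 62,710 identifiers, 232 appear on several lines with the same counts and entered once. Tool versions, genome build, annotation, strand use and the treatment of multi-mapping reads are not given in the sources used here. A multi-mapping or strand setting can change the counts of similar or overlapping genes.

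The counts were modelled in R 4.3.3 with edgeR 4.0.16 (TMM, filterByExpr defaults, robust quasi-likelihood F test), with all 9 libraries in 1 fit and 3 contrasts, and Benjamini-Hochberg adjustment over 17,412 genes. All adjusted p are from this test unless another tool is named. CPM are counts scaled to an effective library size of 1,000,000, and per-length levels divide these by the exon length of GENCODE 29 (GRCh38), merged over all annotated transcripts of a gene. That annotation also gave positions and matched 92.9% of identifiers. Promoter sequences are RefSeq's. Alternatives were DESeq2's size factors, library totals, the DESeq2 1.42.0 test, other filters, only the 6 libraries compared, the replicate number as a block, a 2-fold rule and each library left out. After seeing the data, they were applied to the related lists too.

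The members and the gene lists were chosen with earlier results of these data known. Named genes are the members, in each list up to 4 called genes with the largest change after ADP-heptose and up to 2 with the largest fall, the 2 genes most correlated with each member, and overlapping genes. HSPA8, the intestinal and other markers with their values and the other listed genes were named after their values were seen. The study describes its conditions as 3 independent experiments, while the labels name no separate cultures, so p-values measure the spread between these libraries. At these depths BATF3, with 0 to 45 counts, is the member most limited by counting. Figures were drawn with matplotlib 3.10.9.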

Additional observations from a re-analysis of the deposited data

How the results depend on the processing

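The 10 AP-1 genes called after ADP-heptose and the 9 called against flagellin kept their direction under every alternative run. Of them 9 were called after ADP-heptose with the 2-fold rule and 9 or 10 with 1 library left out, and against flagellin 8 with library totals, 7 with the 2-fold rule and 9 with any library left out. The genes called higher after flagellin, 0 of 10, were 2 with DESeq2, 1 with no filter, 2 with only the 6 libraries compared and 0 to 2 with 1 library left out, in each case ATF3, BATF3 or both. Over all genes, calls after ADP-heptose (1302 higher, 770 lower) were 504 and 82 with the 2-fold rule, and 925 to 2018 and 392 to 1270 with 1 library left out. The lower calls were 1886 with library totals and 433 with 6 libraries. Calls after flagellin (64 higher, 2 lower) were 102 and 4 with DESeq2, 114 and 10 with no filter, 38 to 165 and 0 to 6 with 1 library left out. The higher calls were 140 with 6 libraries and 37 with the 2-fold rule. Against flagellin, calls with ADP-heptose (940 higher, 481 lower) were 359 and 50 with the 2-fold rule and 677 to 1798 and 233 to 923 with 1 library left out, and the lower calls were 1064 with library totals and 269 with 6 libraries. Among the fits with 1 library left out, the highest counts over all genes came without ADP-heptose replicate 3 in both directions of all 3 comparisons. Directions turned in 2 uncalled values: JUNB after flagellin ranged from -0.0097 to 0.0835 with 1 library left out, and BATF3 between the stimuli was -0.0831 with library totals and ranged from -0.0889 to 0.137 with 1 library left out. The replicate number as a block left 10, 0 and 9 AP-1 genes called higher after ADP-heptose, after flagellin and between the stimuli and changed none of their calls. Over all genes it gave 1064 higher and 523 lower, 45 and 1, and 784 and 327 in the same order. Same-numbered libraries correlated between -0.379 and 0.222 in their deviations from group means, not every library correlated best with its own number, and the libraries share only a number. The cause was not tested where a value moved. Counting limits BATF3 most among the members.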
